A study of Homo sapiens with 6 samples.

Results

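MYC, its dimer partner MAX and 38 genes that build ribosomes were followed in NCI-H460 cells with reduced PRMT5. The 40 genes were listed by name for their known roles, and no measured value entered the rule, although earlier results of these data were known when the list was made. They were 40 of 58825 genes in the deposited data, and all 40 were among the 20295 genes with enough counts to be tested. Most of the 38 ribosome biogenesis genes were slightly lower in PRMT5-shRNA cells. The median over all 40 was a log2 fold change of -0.15, against 0.0075 for all tested genes. No single gene of the 40 passed the test after adjustment over all tested genes. MYC itself differed far more between libraries of the same group than between the groups.

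MYC is a transcription factor that binds DNA as a dimer with MAX, preferentially at the E-box sequence CACGTG. Among its best known targets are genes for making ribosomes. In the nucleolus, RNA polymerase I transcribes the ribosomal RNA precursor, and small nucleolar ribonucleoprotein particles (snoRNPs) guide its modification and cleavage. Large sets of assembly factors then mature the small (40S) and large (60S) ribosomal subunits. Rapidly dividing tumor cells need this production line to supply new ribosomes.

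NCI-H460 is a human large cell lung carcinoma line, which the labels call lung adenocarcinoma. RNA came from cells infected with lentivirus for a control hairpin, which the labels describe as against GFP (NC-shRNA, 3 libraries), or for a hairpin against PRMT5 (PRMT5-shRNA, 3 libraries). The cells were stable transformants, described as 3 biological replicates per group. Both groups carried a lentiviral hairpin, and the labels do not say which of the designed PRMT5 hairpins was used. PRMT5 methylates arginine residues of its targets, among them histones and splicing proteins.

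PRMT5 was reduced in every library. It stood at 143.1, 127.1 and 128.2 CPM (estimated counts scaled to library size by edgeR's TMM method) in the NC-shRNA libraries. In the PRMT5-shRNA libraries it stood at 45.8, 45.6 and 38.3 CPM. The groups did not overlap, and the PRMT5-shRNA mean was 32.6% of the NC-shRNA mean. The log2 fold change was -1.62 with a standard error (SE) of 0.09 and an adjusted p of 0.0063 by edgeR's quasi-likelihood test. An antisense gene overlaps PRMT5. The library kit kept strand, but whether counting used it is not given in the sources used here. With 3 libraries against 3, an exact permutation test cannot give a two-sided p below 0.1, which is the value for PRMT5.

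Total estimated counts per library ranged from 53531257 to 70518401. The epithelial markers KRT8, KRT18, KRT7 and KRT19 were expressed, whereas EPCAM and CDH1 stayed below 1 FPKM (fragments scaled for gene length and library size) in all libraries. The 4 lung lineage markers NKX2-1, SFTPB, SFTPC and NAPSA were near 0. The summed epithelial level was 343.7 to 361.3 FPKM in NC-shRNA and 317.9 to 328.5 FPKM in PRMT5-shRNA. The 8 endothelial markers summed to 22.0 to 23.8 and 21.4 to 22.9 FPKM, with ESAM and EGFL7 the most abundant, and 5 of them stayed below 1 FPKM. The 6 fibroblast markers summed to 10.3 to 11.4 and 10.2 to 12.4 FPKM, with COL1A2 at 0. The 6 leukocyte markers summed to 6.57 to 8.63 and 6.54 to 7.62 FPKM, with CD3E at 0 and CD68 the most abundant. The epithelial sum was lower in every PRMT5-shRNA library than in every NC-shRNA library, while the endothelial, fibroblast and leukocyte sums overlapped between the groups. Single markers also differed. COL3A1 was at 0.97 ± 0.10 FPKM in NC-shRNA and 1.86 ± 0.22 FPKM in PRMT5-shRNA, and PDGFRB at 0.45 ± 0.05 and 0.71 ± 0.06 FPKM (mean ± SD, n = 3). PECAM1 was at most 0.05 FPKM in NC-shRNA and 0.16 to 0.21 FPKM in PRMT5-shRNA, and CDH5 was also higher at an unadjusted p under 0.05. KRT8 and ESAM were lower at an unadjusted p under 0.05. No marker passed adjustment in edgeR's test, with a smallest adjusted p of 0.11 for COL3A1, and the part of these markers in the results was not tested.

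The E-box was looked for in the promoters of the 40 genes, since it is the sequence MYC and MAX are known to bind. RefSeq windows of 300 bases (250 before the start and 50 from the start on, GRCh38.p14) were matched by symbol for 33 genes. The genes without an entry were MYC, NOP58, NOLC1, BOP1, RRP1B, RRP12 and TCOF1. The letters CACGTG, which read the same on both strands, occurred in a window of 15 of the 33 genes (45.5%). Among all genes with a window, 2396 of 27305 (8.77%) held them. That share includes genes not expressed in these cells, and no share was counted over the tested genes alone. Counted by window, the shares were 35.7% of 42 and 7.26% of 35116. All 15 matches lay close to the start, 4 of them before it by at most 31 bases and 11 after it by at most 35 bases. A match is a description of the sequence, not of binding.

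The promoters of UTP20, MRTO4, RRP9 and NOP14 are shown because these members had the smallest p among those with the motif. The E-box is in capitals, and each sequence reads in the direction of transcription. They lie at chr12:101279855-101280154 (plus strand), chr1:19251555-19251854 (plus strand), chr3:51941855-51942154 (minus strand) and chr4:2963357-2963656 (minus strand) of GRCh38.p14. The motif begins 10 bases before the start in UTP20 and 5 bases before it in RRP9. In MRTO4 and NOP14 it begins 14 and 15 bases after the start.
UTP20: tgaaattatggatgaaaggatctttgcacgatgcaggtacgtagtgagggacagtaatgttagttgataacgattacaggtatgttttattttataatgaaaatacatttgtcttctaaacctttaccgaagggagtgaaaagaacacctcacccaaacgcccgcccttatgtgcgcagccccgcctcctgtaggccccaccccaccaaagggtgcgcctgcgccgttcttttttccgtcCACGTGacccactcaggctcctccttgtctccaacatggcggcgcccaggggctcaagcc
MRTO4: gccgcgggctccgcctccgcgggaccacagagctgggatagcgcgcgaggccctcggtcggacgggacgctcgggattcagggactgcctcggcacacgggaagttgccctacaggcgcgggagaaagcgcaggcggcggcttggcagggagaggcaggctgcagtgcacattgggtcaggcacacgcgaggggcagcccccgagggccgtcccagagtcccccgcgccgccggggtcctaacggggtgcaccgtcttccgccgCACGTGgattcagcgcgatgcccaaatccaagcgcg
RRP9: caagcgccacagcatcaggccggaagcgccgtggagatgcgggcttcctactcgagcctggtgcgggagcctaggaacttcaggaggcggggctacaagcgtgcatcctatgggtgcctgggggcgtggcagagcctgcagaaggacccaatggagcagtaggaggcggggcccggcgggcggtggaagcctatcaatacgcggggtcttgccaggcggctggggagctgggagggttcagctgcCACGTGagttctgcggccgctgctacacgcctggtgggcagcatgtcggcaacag
NOP14: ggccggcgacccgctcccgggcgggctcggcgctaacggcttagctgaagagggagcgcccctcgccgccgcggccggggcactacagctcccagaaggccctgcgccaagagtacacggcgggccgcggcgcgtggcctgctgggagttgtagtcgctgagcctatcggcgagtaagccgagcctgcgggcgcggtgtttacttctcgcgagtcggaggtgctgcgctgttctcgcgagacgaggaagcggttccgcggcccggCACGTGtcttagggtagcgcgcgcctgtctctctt

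Of the 13 matched genes that were lower at an unadjusted p under 0.05, 8 held the E-box (61.5%), and of the other 20 matched genes, 7 did (35%). These counts were not tested. The motif was also present in genes whose levels hardly differed between the groups. DDX21, WDR43 and GAR1 were examples, with log2 fold changes of -0.04, -0.06 and -0.06.

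MYC (ENSG00000136997, chr8:127735434-127741434, plus strand, GRCh38) was at 13.3, 232.3 and 15.5 CPM in the NC-shRNA libraries. In the PRMT5-shRNA libraries it was at 14.9, 10.8 and 297.7 CPM. In each group 1 library stood far above the other two, replicate 2 of NC-shRNA and replicate 3 of PRMT5-shRNA. The highest library exceeded the lowest 17.5-fold within NC-shRNA and 27.5-fold within PRMT5-shRNA. The deposited FPKM showed the same split, with 2.37, 42.5 and 2.88 against 2.83, 2.04 and 57.1. The log2 fold change of 0.31 had an SE of 1.53 and an adjusted p of 0.955 by edgeR, so no difference between the groups was detectable. Leaving out 1 library at a time moved it from -2.76 (without PRMT5-shRNA replicate 3) to 2.90 (without NC-shRNA replicate 2), with 3 of the 6 values below 0.

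The genes on either side of MYC did not share this split. PVT1, the long noncoding RNA gene downstream of MYC, had 1070, 1083 and 1128 estimated counts in NC-shRNA and 982, 1245 and 1037 in PRMT5-shRNA. CASC11, a noncoding gene upstream, had 26, 20 and 21 against 32, 37 and 24 counts. No other gene annotated in GENCODE release 29 overlaps MYC, with small RNA genes left out of the search. Among 9964 genes with a mean over 10 CPM, 17 varied over 10-fold between libraries within both groups, as MYC did. The source of the split in MYC was not tested. The counts are the authors' estimates, and whether the values of the high libraries measure the level of MYC RNA was not tested either, so they are given as deposited.

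**Figure D1:**
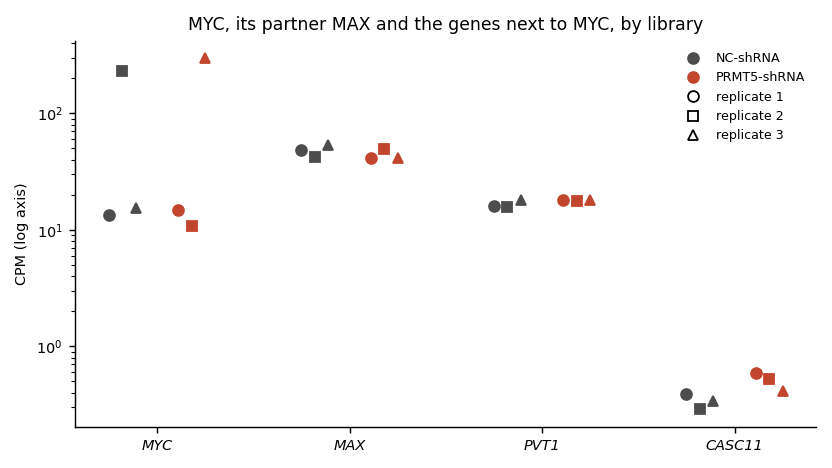
CPM on a log axis of MYC, MAX, PVT1 and CASC11, 1 point per library, dark for NC-shRNA and red for PRMT5-shRNA, with the marker shape giving the replicate number. MYC reached 232.3 CPM in NC-shRNA replicate 2 and 297.7 CPM in PRMT5-shRNA replicate 3 and lay between 10.8 and 15.5 CPM in the other 4 libraries, while MAX and PVT1 varied little.

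MAX, the obligate partner of MYC, was at 48.4, 42.3 and 53.6 CPM in NC-shRNA and at 41.8, 49.7 and 41.7 CPM in PRMT5-shRNA. These ranges overlapped. The log2 fold change was -0.11 with an SE of 0.11 and an adjusted p of 0.72 by edgeR. FNTB overlaps MAX on the other strand.

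Across the 40 genes, 36 (90%) had a log2 fold change below 0, against 48.8% of all tested genes. In 22 of them (55%) every PRMT5-shRNA library lay below every NC-shRNA library, against 10.7% of all tested genes. The opposite order was found for 0 of the 40, against 11.0% of all tested genes. Of the 13954 genes with at least 1 CPM in all libraries, 1825 had the first order and 1691 the opposite one. At an unadjusted p under 0.05 in edgeR's test, 16 (40%) were lower, against 6.29% of all tested genes, and 0 were higher, against 6.54%. A fit of only the genes with at least 1 CPM in all libraries also gave 16, against 7.83% of the genes in it. After adjustment, 0 of the 40 were lower (0.0197% of all tested genes) and 0 were higher (0.0493%). The smallest adjusted p among the 40 was 0.188, for UTP20. DESeq2 called 2 of them lower after adjustment, UTP20 and MRTO4, and called 0.510% of all genes in its fit lower. That fit held 32174 genes, as low counts were not filtered out beforehand, so its share is not like that of edgeR.

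The differences were small. Log2 fold changes ran from -0.38 (NOP16) to 0.33 (NIP7), with a median SE of 0.075. On log2(FPKM + 1) the median over the 40 genes was -0.08 beside 0.04 for all genes in that fit. The direction of the median was the same, and its size smaller. By limma on these values, 8 of the 40 were lower at an unadjusted p under 0.05, against 4.59% of all genes in that fit. Without a filter on mean FPKM, limma gave 15 (3.68% of all genes), and a linear model per gene gave 12 (4.46%). Of the 16, NHP2, GNL3, NOP14, TSR1, NOP16, BOP1, PES1 and MRTO4 overlap an annotated gene on the other strand, and NOP2 overlaps AC006064.6, with at most 3 counts, on its own strand. In bulk RNA, fewer cells with high levels and less RNA per cell cannot be told apart.

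The 38 genes without MYC and MAX also differed between libraries of a group. Relative to each gene's mean over the 6 libraries, their median log2 level was 0.13, 0.08 and 0.03 in NC-shRNA and -0.06, -0.07 and -0.12 in PRMT5-shRNA. The groups did not overlap on this scale. The spread within NC-shRNA was about as wide as the gap between its lowest library and the highest PRMT5-shRNA library. NC-shRNA replicate 1 was the highest library of its group for 24 of the 38 genes, and PRMT5-shRNA replicate 3 the lowest of its group for 23. This order was not counted over all tested genes, so whether it is particular to the 38 was not tested. The TMM scaling factors were lower in NC-shRNA (0.965, 0.984 and 1.0006) than in PRMT5-shRNA (1.02, 1.01 and 1.02). With library totals only, the median over the 40 genes was -0.10 and that of all tested genes 0.06. The libraries high in MYC were not the highest for these genes. NC-shRNA replicate 2 lay between the other two of its group, while PRMT5-shRNA replicate 3 was the lowest of all.

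**Figure D2:**
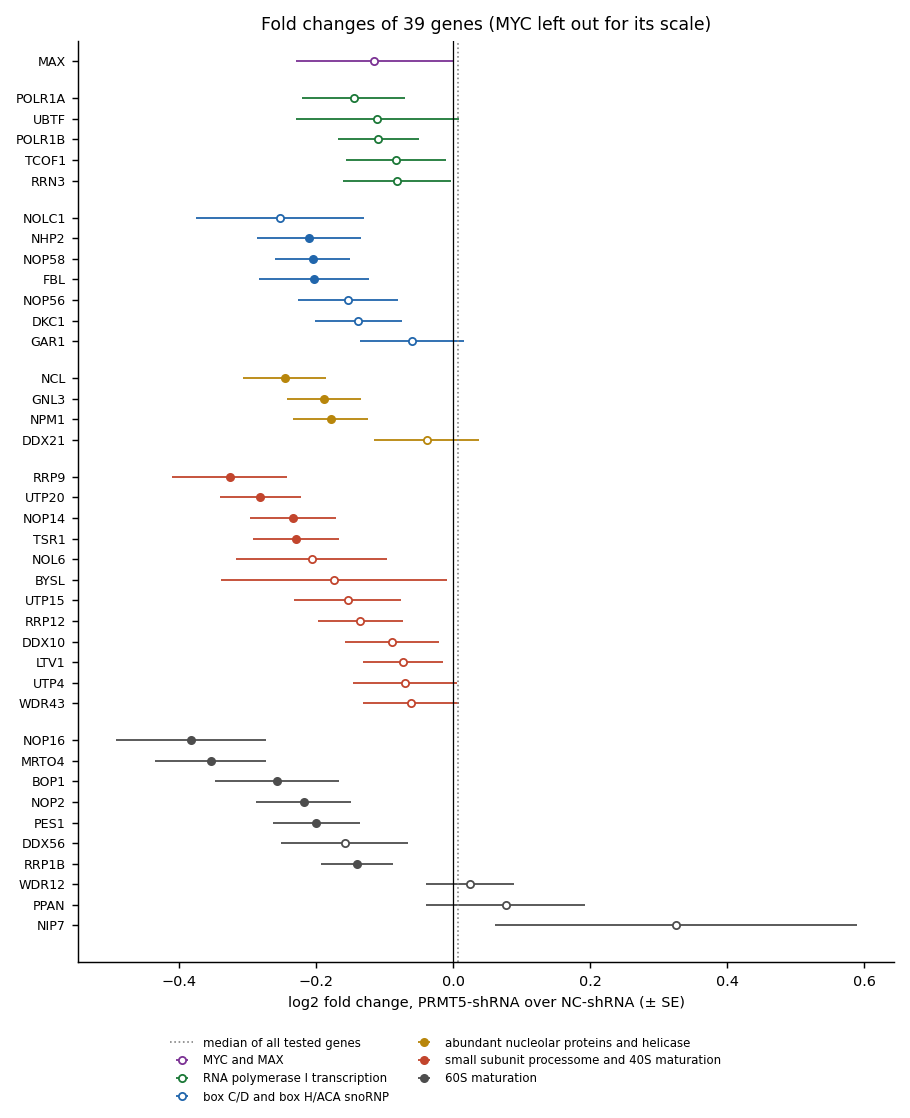
Log2 fold change of PRMT5-shRNA over NC-shRNA with its standard error (n = 3 libraries per group) for 39 genes, grouped and colored by role, with MYC left out because its standard error of 1.53 exceeds the axis. Filled points had an unadjusted p under 0.05 in edgeR's test, and 36 of the 39 points lie left of 0.

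The RNA polymerase I group held 5 genes, all with a log2 fold change below 0 and none with an unadjusted p under 0.05. Of all tested genes, 48.8% were below 0 and 6.29% were lower at that threshold. Their median was -0.11. POLR1A, the largest subunit of the enzyme, had the greatest difference of the group. It was at 176.8, 198.7 and 188.5 CPM in NC-shRNA and at 178.2, 175.4 and 156.4 CPM in PRMT5-shRNA, so that the ranges overlapped slightly. The log2 fold change was -0.15 with an SE of 0.07 and an adjusted p of 0.459. RRN3, which brings the polymerase to its promoter, had the highest FPKM of the group. It was at 92.5, 102.6 and 96.8 CPM against 84.8, 91.5 and 99.6 CPM, with a log2 fold change of -0.08 (adjusted p = 0.71). Counts of its 2 annotated pseudogenes were at most 8.76% of the sum with RRN3. POLR1B, the other large catalytic subunit, was the only gene of this group without overlap between the groups, with 112.2 ± 4.28 CPM against 104.1 ± 3.63 CPM (mean ± SD, n = 3). UBTF, which shapes active ribosomal genes, and TCOF1, a nucleolar scaffold protein, had log2 fold changes of -0.11 and -0.08.

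The snoRNP group held 7 genes, all with a log2 fold change below 0 (48.8% of all tested genes) and a median of -0.20. In 5 of them every PRMT5-shRNA library lay below every NC-shRNA library (10.7% of all tested genes). At an unadjusted p under 0.05, 3 were lower (6.29% of all tested genes). Fibrillarin (FBL), the methyltransferase of box C/D particles, was at 258.4, 229.6 and 215.0 CPM in NC-shRNA and at 204.6, 194.1 and 211.9 CPM in PRMT5-shRNA. The lowest NC-shRNA library was only just above the highest PRMT5-shRNA library. This gave a log2 fold change of -0.20 with an SE of 0.08 (unadjusted p = 0.039, adjusted p = 0.364 by edgeR). NOP58, a core protein of the same particles, was at 117.6, 115.0 and 114.5 CPM against 97.7, 99.3 and 104.1 CPM. The groups were clearly separate, with a log2 fold change of -0.20 and an SE of 0.05 (unadjusted p = 0.0074, adjusted p = 0.244 by edgeR). Its partner NOP56 was at 220.5 ± 13.1 CPM against 198.2 ± 13.1 CPM (mean ± SD, n = 3).

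Box H/ACA particles convert uridines to pseudouridines. NHP2, one of their core proteins, was at 128.7, 119.5 and 111.8 CPM in NC-shRNA and at 103.6, 109.8 and 97.7 CPM in PRMT5-shRNA. Its log2 fold change was -0.21 with an SE of 0.08 (unadjusted p = 0.028, adjusted p = 0.33 by edgeR). DKC1, the pseudouridine synthase, and GAR1, another core protein, had log2 fold changes of -0.14 and -0.06. GAR1 was the least abundant of the group in FPKM. NOLC1, a snoRNP chaperone, had the greatest difference of the group and also a wide spread. It was at 470.2, 403.3 and 389.7 CPM against 404.3, 299.1 and 356.9 CPM, and the ranges overlapped. Its log2 fold change of -0.25 had an SE of 0.12 and an adjusted p of 0.439.

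The abundant nucleolar proteins included the highest level of all 40 genes. At an unadjusted p under 0.05, 3 of the 4 were lower, against 6.29% of all tested genes. Nucleophosmin (NPM1), a histone chaperone of the nucleolus, was at 1775.6, 1746.9 and 1596.1 CPM in NC-shRNA and at 1509.8, 1520.6 and 1491.4 CPM in PRMT5-shRNA. Per length its mean was 358.6 FPKM, while the median gene of the 40 was at 19.6 FPKM. NPM1 had a log2 fold change of -0.18 with an SE of 0.05 (unadjusted p = 0.014, adjusted p = 0.287 by edgeR). NPM1 has 45 annotated pseudogenes, and their counts were at most 7.60% of the sum with NPM1.

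Nucleolin (NCL), which binds ribosomal RNA precursors, was at 1092.3, 1003.3 and 1051.8 CPM in NC-shRNA and at 926.1, 895.0 and 832.9 CPM in PRMT5-shRNA. All PRMT5-shRNA libraries were below the NC-shRNA libraries, and the PRMT5-shRNA mean was 84.3% of the NC-shRNA mean. NCL had a log2 fold change of -0.25 with an SE of 0.06 (unadjusted p = 0.0049, adjusted p = 0.218 by edgeR). Nucleostemin (GNL3), a nucleolar GTPase, was at 142.1, 152.2 and 150.2 CPM against 132.1, 129.6 and 128.2 CPM, with a log2 fold change of -0.19 (unadjusted p = 0.0105, adjusted p = 0.269 by edgeR). The helicase DDX21 was at 594.3 ± 49.6 CPM against 578.6 ± 31.3 CPM (mean ± SD, n = 3), and its ranges overlapped widely.

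The small subunit group held 12 genes, all with a log2 fold change below 0 (48.8% of all tested genes) and a median of -0.16. In 7 of them every PRMT5-shRNA library lay below every NC-shRNA library (10.7% of all tested genes). At an unadjusted p under 0.05, 4 were lower (6.29% of all tested genes). UTP20, a large scaffold protein of the early small subunit precursor, had the smallest p of all 40 genes. It was at 111.3, 117.4 and 119.5 CPM in NC-shRNA and at 98.3, 92.2 and 96.0 CPM in PRMT5-shRNA. Its log2 fold change was -0.28 with an SE of 0.06 (unadjusted p = 0.0021, adjusted p = 0.188 by edgeR). DESeq2 gave an adjusted p of 0.0371. RRP9, a protein of the U3 particle that guides early cleavage, had the greatest difference of the group. It was at 42.9, 40.1 and 36.5 CPM against 32.9, 31.0 and 31.4 CPM, so that the PRMT5-shRNA mean was 79.8% of the NC-shRNA mean. RRP9 had a log2 fold change of -0.33 with an SE of 0.08 (unadjusted p = 0.0062, adjusted p = 0.233 by edgeR).

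NOP14, an assembly factor of the same precursor, was at 128.2, 118.7 and 114.3 CPM in NC-shRNA and at 102.7, 103.7 and 100.8 CPM in PRMT5-shRNA. The PRMT5-shRNA libraries lay close together and below all controls, with a log2 fold change of -0.23 (unadjusted p = 0.0074, adjusted p = 0.244 by edgeR). TSR1, which acts late on the 40S precursor, was at 222.4, 217.4 and 196.6 CPM against 181.1, 182.2 and 179.7 CPM. Its log2 fold change was -0.23 (unadjusted p = 0.0082, adjusted p = 0.25 by edgeR). WDR43, a subunit of an early binding subcomplex, had the highest FPKM of the group. It was at 168.6, 174.6 and 179.8 CPM against 156.2, 163.7 and 181.3 CPM, with overlapping ranges and a log2 fold change of -0.06.

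The other 7 genes of this group had log2 fold changes from -0.21 (NOL6) to -0.07 (UTP4) and no unadjusted p under 0.05. UTP15, RRP12 and LTV1 did not overlap between the groups. LTV1 overlaps AL049844.1 on its own strand, and the sum of both genes did overlap between the groups. That sum was 52.68 CPM in NC-shRNA replicate 2 and 52.99 CPM in PRMT5-shRNA replicate 3. UTP15 belongs to the same early subcomplex as WDR43, whereas RRP12 and LTV1 accompany the 40S precursor out of the nucleus. BYSL, a late 40S factor, had an NC-shRNA range of 34.8 to 56.3 CPM and a PRMT5-shRNA range of 39.1 to 41.3 CPM inside it. The helicase DDX10 had a log2 fold change of -0.09. UTP4 shares its strand and part of its annotated span with SNTB2, so its reads may have been divided between them.

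The 60S group held 10 genes and was the most divided. In 6 of them all PRMT5-shRNA libraries were below all NC-shRNA libraries (10.7% of all tested genes). The same number were lower at an unadjusted p under 0.05 (6.29% of all tested genes). A log2 fold change above 0 was found for 3 of the 10 and for 10385 of the 20295 tested genes. The median was -0.18. NOP16, a nucleolar 60S factor, had the lowest log2 fold change of all 40 genes. It was at 110.0, 95.8 and 81.4 CPM in NC-shRNA and at 72.0, 75.7 and 72.5 CPM in PRMT5-shRNA. The controls were widely spread but all higher. NOP16 had a log2 fold change of -0.38 with an SE of 0.11 (unadjusted p = 0.0103, adjusted p = 0.267 by edgeR). MRTO4, which holds the place of the stalk on the immature 60S subunit, was at 104.5, 92.8 and 87.3 CPM against 74.0, 77.1 and 71.6 CPM. It had the highest FPKM of the group and a PRMT5-shRNA mean of 78.2% of the NC-shRNA mean. MRTO4 had a log2 fold change of -0.35 with an SE of 0.08 (unadjusted p = 0.0034, adjusted p = 0.203 by edgeR), and DESeq2 gave an adjusted p of 0.0412.

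PES1, BOP1 and WDR12 form 1 complex that is needed to process the RNA of the large subunit. PES1 was at 142.2, 133.9 and 126.3 CPM in NC-shRNA and at 117.1, 119.9 and 113.4 CPM in PRMT5-shRNA, with a log2 fold change of -0.20 (unadjusted p = 0.0172, adjusted p = 0.301 by edgeR). BOP1 was at 83.8, 77.5 and 71.04 CPM against 69.4, 65.9 and 59.0 CPM, with a log2 fold change of -0.26 (unadjusted p = 0.026, adjusted p = 0.323 by edgeR). The third subunit, WDR12, was not lower in value. It was at 84.1 ± 5.13 CPM against 85.5 ± 0.88 CPM (mean ± SD, n = 3), with a log2 fold change of 0.02 and an SE of 0.06. Whether WDR12 differs from its partners in response was not tested.

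NOP2, which methylates cytosines of the large ribosomal RNA, was at 161.2, 145.8 and 138.5 CPM in NC-shRNA and at 129.4, 127.2 and 126.3 CPM in PRMT5-shRNA. Its log2 fold change was -0.22 (unadjusted p = 0.0163, adjusted p = 0.295 by edgeR). RRP1B, a nucleolar protein bound to 60S precursors, was at 135.3, 132.2 and 127.9 CPM against 119.6, 120.6 and 118.5 CPM. The PRMT5-shRNA values spanned a narrow range below all controls, with a log2 fold change of -0.14 (unadjusted p = 0.0319, adjusted p = 0.34 by edgeR). The helicase DDX56 was at 105.6 ± 12.3 CPM against 94.6 ± 3.94 CPM (mean ± SD, n = 3), with overlapping ranges.

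NIP7 and PPAN had positive values and shared loci. NIP7, a 60S factor that lies opposite COG8 on the other strand, was at 17.0, 27.7 and 37.8 CPM in NC-shRNA and at 35.8, 36.6 and 30.9 CPM in PRMT5-shRNA. The control values spanned the PRMT5-shRNA values, and the log2 fold change of 0.33 had an SE of 0.26. PPAN, which acts early on the 60S precursor, shares exons with the readthrough gene PPAN-P2RY11. PPAN was at 43.6, 33.4 and 43.6 CPM against 41.0, 43.9 and 42.2 CPM. In NC-shRNA replicate 2, where PPAN was lowest, PPAN-P2RY11 had 814 counts, against 0 to 244 in the other libraries. The sum of both genes was 45.2 ± 0.72 CPM in NC-shRNA and 44.6 ± 0.79 CPM in PRMT5-shRNA (mean ± SD, n = 3).

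**Figure D3:**
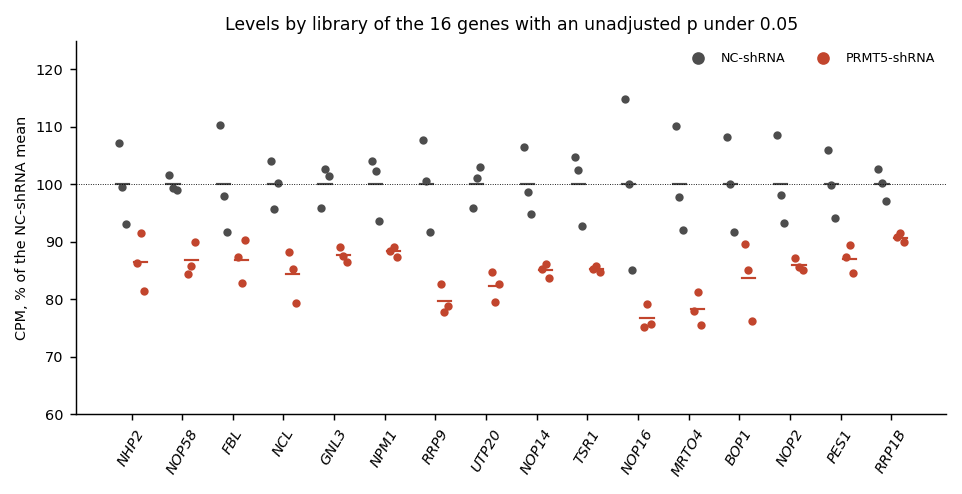
CPM of each library as a percentage of the NC-shRNA mean for the 16 genes that were lower at an unadjusted p under 0.05, with NC-shRNA in dark, PRMT5-shRNA in red and a line at each group mean; the axis starts at 60%. In all 16 the PRMT5-shRNA libraries lie below the NC-shRNA libraries, and the PRMT5-shRNA means run from 76.7% (NOP16) to 90.7% (RRP1B).

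Other genes of the pathway were taken from lists by function. The 4 lists of ribosome biogenesis genes outside the 40 held 108 tested genes. Of these, 89 had a log2 fold change below 0 and the median was -0.12. At an unadjusted p under 0.05, 21 were lower and 2 were higher, and after adjustment 0 differed, with a smallest adjusted p of 0.193. The PRMT5-shRNA libraries all lay below the controls for 37 of the 108 and all lay above them for 2. These orders held for 10.7% and 11.0% of all tested genes. Of all tested genes, 48.8% were below 0, and 6.29% were lower and 6.54% higher at an unadjusted p under 0.05. These shares also apply beside the lists that follow.

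Among 41 small subunit factors, 37 had a log2 fold change below 0 (median -0.14), and 10 were lower and 0 higher at an unadjusted p under 0.05. DDX47, an RNA helicase, was at 84.0 ± 2.66 CPM in NC-shRNA and 69.3 ± 1.94 CPM in PRMT5-shRNA (mean ± SD, n = 3), a log2 fold change of -0.28 (adjusted p = 0.193 by edgeR). UTP14A, which activates a helicase of the same precursor, was at 115.4 ± 1.63 CPM against 96.9 ± 5.10 CPM, a log2 fold change of -0.25. Both resembled UTP20 and NOP14 in size of difference. Among 41 large subunit factors, 32 were below 0 (median -0.10), with 8 lower and 2 higher. EBNA1BP2, at 154.2 ± 12.5 CPM against 126.6 ± 5.92 CPM, and NOC2L, at 233.3 ± 9.91 CPM against 202.8 ± 7.34 CPM, had the smallest p. Both are nucleolar assembly factors of the 60S subunit.

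The remaining RNA polymerase I machinery (16 genes, median -0.13) had 2 genes lower at an unadjusted p under 0.05 and 0 higher. These were POLR2L (log2 fold change -0.36) and POLR2K (-0.19), small subunits that all nuclear RNA polymerases share. Among 10 further snoRNP genes (median -0.09), NOP10, a core protein of box H/ACA particles, was lower. It was at 122.2, 101.9 and 96.5 CPM in NC-shRNA and at 85.7, 90.1 and 76.5 CPM in PRMT5-shRNA, with a log2 fold change of -0.35 (unadjusted p = 0.0153, adjusted p = 0.292 by edgeR). SNU13, a box C/D core protein, was at 93.3 ± 17.6 CPM against 74.8 ± 5.47 CPM (mean ± SD, n = 3), with overlapping ranges.

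The network around MYC had a median near 0. Of 18 tested network partners, such as MLX, MNT and MGA, 9 had a log2 fold change below 0 and the median was 0.003. MYCBP, which binds MYC, was the only one with an unadjusted p under 0.05, with a log2 fold change of -0.34. MLXIPL, a glucose-responsive relative of the MYC partners, was at 10.1 ± 1.23 CPM against 12.2 ± 0.69 CPM (mean ± SD, n = 3).

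Textbook MYC-induced genes outside the nucleolus were all below 0 in log2 fold change (18 of 18, median -0.17), against 48.8% of all tested genes. At an unadjusted p under 0.05, 4 were lower (6.29% of all tested genes) and 0 higher (6.54%), and after adjustment 0 differed. Spermidine synthase (SRM) was at 94.4, 94.8 and 80.3 CPM in NC-shRNA and at 74.6, 72.6 and 62.2 CPM in PRMT5-shRNA, with a log2 fold change of -0.36 (adjusted p = 0.253 by edgeR). NME1, a nucleoside diphosphate kinase, was at 307.4 ± 30.9 CPM against 258.1 ± 9.13 CPM (mean ± SD, n = 3). Of 8 textbook MYC-repressed genes, 6 were above 0 (median 0.12), as were 10385 of the 20295 tested genes. At an unadjusted p under 0.05, 2 were higher (6.54% of all tested genes) and 0 lower (6.29%). GADD45A, a growth arrest gene, was at 19.2, 18.98 and 17.6 CPM in NC-shRNA and at 23.6, 26.4 and 28.8 CPM in PRMT5-shRNA. The groups did not overlap, and the log2 fold change was 0.50 (unadjusted p = 0.0019, adjusted p = 0.185 by edgeR). CEBPA, a differentiation factor, was at 2.71 ± 0.15 CPM against 3.70 ± 0.46 CPM (mean ± SD, n = 3).

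**Figure D4:**
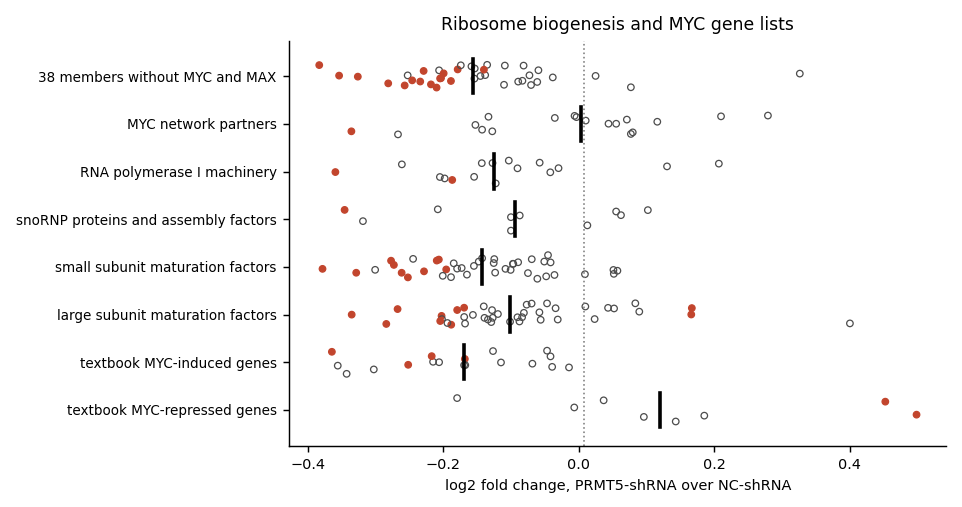
Log2 fold change of PRMT5-shRNA over NC-shRNA for each gene (points) of the 38 ribosome biogenesis genes and of 7 lists outside them, with a bar at each list's median and a dotted line at the median of all tested genes (0.0075). Red points had an unadjusted p under 0.05. The medians of the 5 ribosome biogenesis sets lie between -0.16 and -0.09. That of the MYC-induced genes outside the nucleolus is -0.17, and those of the MYC network and the MYC-repressed genes are 0.003 and 0.12.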

How the data were processed

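RNA-seq of NCI-H460 cells with NC-shRNA (3 libraries) and PRMT5-shRNA (3 libraries) was analysed, with groups and replicate numbers taken from the sample labels. The authors prepared stranded mRNA libraries, mapped reads with Hisat2 and deposited 2 values for each gene in a library, an estimated count and an FPKM. The submitters' processing notes name HISAT2 2.0.4, StringTie 1.3.4d, cutadapt 1.9 and GRCh38, whereas the methods name GRCm38, a mouse assembly. The gene identifiers are human. The estimated counts deposited by the authors were whole numbers, so rounding changed nothing. Of counts from 1 to 19, 35.5% were multiples of 4. Whether the estimated counts equal numbers of fragments was not tested. How counting divided reads of overlapping genes is not given in the sources used here. The FPKM values deposited by the authors are scaled for gene length and library size.

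Counts were scaled by TMM, filtered with filterByExpr by group and tested with edgeR's quasi-likelihood test (edgeR 4.0.16 in R 4.3.3) with Benjamini-Hochberg adjustment over all 20295 genes. The SE was derived from the F statistic. CPM are TMM-scaled and compare a gene between libraries, while FPKM compare genes. Alternatives were other scalings and filters, DESeq2 1.42.0, limma 3.58.1 on log2 FPKM (pseudocounts 1 and 0.1, mean FPKM from 0.5 up), a linear model per gene, a correction for transcript length, a replicate block, and fits without 1 library at a time. The scripts were tested on simulated data. The members and lists were chosen with earlier results of these data known. Values in every library are given for PRMT5, MYC, MAX, members with an unadjusted p under 0.05, and in each role the member with the largest log2 fold change in size and that with the highest FPKM. Of the other lists, the 2 genes with the smallest p were named. Other members and genes named with values were added to account for all 40 or because a result turned on them. Gene positions and overlaps came from GENCODE release 29, promoters from RefSeq. Overlaps with genes of the types snoRNA, miRNA, snRNA and misc_RNA were left out.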

Additional observations from a re-analysis of the deposited data

How the results depend on the processing

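The PRMT5 decrease kept its direction under every alternative run. It lost an adjusted p under 0.05 with the linear model per gene (-1.49, adjusted p = 0.0913), the replicate block (-1.62, adjusted p = 0.144) and the replicate block with length correction (-1.62, adjusted p = 0.0981). For MYC, leaving out each library in turn gave log2 fold changes from -2.76 to 2.90, and DESeq2 gave no p. The count of the 40 genes lower after adjustment was 2 with DESeq2 (0.51% of all genes in that fit) and 0 otherwise. At an unadjusted p under 0.05, the count of lower genes was 8 with limma on log2(FPKM + 1) and 7 with a pseudocount of 0.1 (4.59% and 4.15% of all genes). With limma on log2(FPKM + 1) without its filter it was 15 (3.68% of all genes), and with the linear model 12 (4.46%). It was 12 to 20 without 1 library each (4.49% to 6.71% of all genes). The count of higher genes was then 0 to 1 (4.72% to 6.69% of all genes). The median log2 fold change of the 40 genes was -0.10 with library totals only, beside 0.06 for all genes in that fit. In the main fit it was -0.15, beside 0.0075. With limma at a pseudocount of 0.1 it was -0.0889, beside 0.0499. It was -0.0817 with limma at a pseudocount of 1 and with the linear model, beside 0.0392 in each. Without limma's filter it was also -0.0817, beside 0.0133. The count with all PRMT5-shRNA libraries above all NC-shRNA libraries was 1 on FPKM (14.7% of all genes). Without 1 library each, that count was 0 to 1 (15.4% to 17.3% of all genes). The cause of these differences was not tested.

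The labels number replicates 1 to 3 in both groups. Deviations of libraries with the same number correlated at 0.03, -0.01 and -0.01 over genes. For libraries with different numbers the values ran from -0.03 to 0.04. Such correlations over all genes cannot show whether libraries with the same number were processed together. With the replicate block 16 of the 40 genes were lower at an unadjusted p under 0.05, against 5.81% of all genes. Of 399 alternative values for 21 single genes, 397 kept direction and side of the threshold, and the other 2 were UTP20 and MRTO4 with DESeq2. Counts of non-overlapping genes have no value under alternatives that change only the test, the filter or the block. With a median SE of 0.075, the single differences, at most 0.38 in size, did not pass adjustment over all genes in edgeR's test.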

Other observations

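Log2 fold changes over 20239 tested genes rose weakly with the length of the longest annotated transcript (Spearman's rho = 0.14 across genes, which are not independent replicates and share libraries). The median length was 3344 bases for the 40 genes and 2902 bases for all tested genes. With a correction for length in each library, the median log2 fold change of the 40 genes was -0.16, and 21 of them were lower at an unadjusted p under 0.05, against 7.48% of all genes in that fit (6.29% without the correction).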
